A study of Mus musculus with 4 samples.

Results

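Expression of 10 genes that mark monocytes and macrophages was examined in leukemia stem cells (LSCs) of a mouse model of acute myeloid leukemia (AML). The 10 genes were a list of names, namely *Cd14*, *Fcgr1*, *Fcgr3*, *Fcer1g*, *Tyrobp*, *Ly6c2*, *C1qa*, *C1qb*, *Ccr2* and *Mpeg1*, and all 10 were found among the 17104 genes of the deposited table. The cells were bone marrow YFP+, c-kit+ LSCs of male C57 mice, collected 6 weeks after secondary transplantation, with 2 libraries from CD37 fl/fl and 2 from CD37 -/- leukemia. Both genotypes came from Lin- bone marrow cells that carried loxP sites around part of *Cd37* and a tamoxifen-inducible Cre under the ubiquitous Rosa26 promoter. These cells were transduced with a retrovirus for the fusion oncogene MLL-AF9 and YFP and grown in irradiated C57 recipients. CD37 -/- recipients received tamoxifen and CD37 fl/fl recipients corn oil in the first transplantation, so that the loss of CD37 and the exposure to tamoxifen cannot be told apart. The labels give neither the age of the mice nor which animals the replicates came from, and p-values therefore measure the spread between these samples, which may be technical.

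MLL-AF9 leukemia is known for its monocytic character, and its blasts carry surface proteins of normal monocytes to varying degrees. The adaptors encoded by *Tyrobp* (DAP12) and *Fcer1g* (the FcR gamma chain) have no ligand of their own. They hold a receptor in the membrane and pass its signal to the kinase SYK through an immunoreceptor tyrosine-based activation motif (ITAM). *Fcgr1* (CD64) and *Fcgr3* (CD16) encode receptors for IgG that use the FcR gamma chain, *Cd14* a co-receptor that hands lipopolysaccharide to TLR4, and *Ccr2* the receptor for the chemokine CCL2, which draws monocytes out of the bone marrow. *Ly6c2* encodes a surface antigen of classical mouse monocytes, *Mpeg1* the pore-forming protein perforin-2, and *C1qa* and *C1qb* chains of C1q, the first component of complement, which macrophages secrete.

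Upstream sequences of 5 of the 10 genes were taken from RefSeq promoter windows on GRCm38.p6. The 5 were printed because their available window held 200 bases before the annotated start, and not for their level or spread. Among them, *Fcer1g* and *Ly6c2* were high and varied less, while *Fcgr1*, *C1qb* and *Mpeg1* varied between libraries. Each run holds the 200 bases before the outermost annotated start, 5′ to 3′ on the gene's own strand. Capitals mark AGGAAG on either strand (CTTCCT when read on the gene's strand), letters that match the core bound by PU.1 and other ETS factors.
Fcer1g (chr1:171234366-171234565, minus strand): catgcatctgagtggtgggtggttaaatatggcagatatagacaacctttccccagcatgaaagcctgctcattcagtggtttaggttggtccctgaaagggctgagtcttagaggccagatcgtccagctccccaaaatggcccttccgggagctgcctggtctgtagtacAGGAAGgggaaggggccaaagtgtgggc
Ly6c2 (chr15:75111972-75112171, minus strand): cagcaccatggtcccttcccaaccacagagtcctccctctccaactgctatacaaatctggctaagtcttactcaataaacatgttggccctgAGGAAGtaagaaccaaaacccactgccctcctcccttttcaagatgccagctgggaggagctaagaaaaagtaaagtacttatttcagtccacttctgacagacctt
Fcgr1 (chr3:96293970-96294169, minus strand): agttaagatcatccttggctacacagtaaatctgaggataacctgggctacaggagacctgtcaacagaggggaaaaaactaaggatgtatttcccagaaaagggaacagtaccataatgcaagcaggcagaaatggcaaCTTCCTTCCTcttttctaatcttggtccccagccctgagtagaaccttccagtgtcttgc
C1qb (chr4:136886201-136886400, minus strand): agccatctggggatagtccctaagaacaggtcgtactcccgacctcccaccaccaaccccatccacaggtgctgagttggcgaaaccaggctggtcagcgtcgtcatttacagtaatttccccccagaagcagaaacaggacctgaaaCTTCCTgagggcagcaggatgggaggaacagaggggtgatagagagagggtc
Mpeg1 (chr19:12460570-12460769, plus strand): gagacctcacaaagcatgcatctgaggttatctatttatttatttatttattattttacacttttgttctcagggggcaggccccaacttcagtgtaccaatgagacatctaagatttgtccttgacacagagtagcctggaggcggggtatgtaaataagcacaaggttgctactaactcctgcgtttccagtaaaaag
AGGAAG was present in 4 of these 5 sequences, at 107 bases before the start of *Ly6c2*, 52 before *C1qb*, 28 before *Fcer1g*, and at 60 and 56 before *Fcgr1*, where the matches overlap. RefSeq windows were at hand for 7 of the 10 genes, and those of *Fcgr3* and *Ccr2* are not printed because they lie within the gene as GENCODE M21 annotates it. In the 200 bases before the RefSeq start itself, AGGAAG was in 5 of these 7, including *Fcgr3* and not *Ccr2*, and in 24.4% of all 27025 RefSeq windows of the same length. TTGCNNAA, the letters of a C/EBP site, and GGAA followed after 2 bases by GAAA, those of a joint ETS and IRF site, were in 1 (*Fcgr3*) and 0 of the 7 on either strand, against 7.47% and 1.91% of all windows. *Mpeg1* held none of the 3 motifs in this window. A match is a description of the letters and says nothing of a factor's binding here.

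The authors deposited FPKM (fragments per kilobase of gene, scaled to the depth of the library), which came out as whole reads when the length was the whole gene, introns included, as GENCODE M21 gives it on GRCm38. Depths implied by these reads ran from 15327357 to 22627491 per library. Levels of different genes were compared below per exon length, computed from the recovered reads, and all differences between libraries were taken from FPKM as deposited. As a check of the labels, *Cd37* had an FPKM of 56.6 and 46.8 in CD37 fl/fl and of 23.2 and 22.9 in CD37 -/-. These values cover the whole gene, including exons outside the deleted part. The sorted cells expressed progenitor genes of this leukemia in every library, with 4754 to 7600 reads of *Hoxa9*, 1092 to 2681 of *Meis1* and 213 to 804 of *Kit*, while *Cd34* had 5 to 16 reads.

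Per exon length, the adaptor genes stood at the top of the 10 and the levels differed widely. *Tyrobp* had a mean of 818 ± 252 (FPKM per exon length, SD, n = 4 libraries), *Fcer1g* 417 ± 76.8, *Ly6c2* 247 ± 34.5 and *Fcgr3* 69.1 ± 19.5. The ranges of these 4 genes overlapped neither each other nor that of *Cd14*, the next in the order. *Cd14* followed at 26.5 ± 9.48, *Mpeg1* at 21.8 ± 19.6 and *C1qb* at 13.2 ± 13.01. *Ccr2* (8.64 ± 4.45), *Fcgr1* (8.24 ± 4.75) and *C1qa* (7.53 ± 7.09) were lowest. From *Cd14* downward, every gene's range overlapped that of its neighbor. Among genes farther apart in the order, the range of *Cd14* (16.3 to 37.0) lay above those of *Ccr2* (4.59 to 13.9) and *Fcgr1* (4.19 to 13.8).

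**Figure D1:**
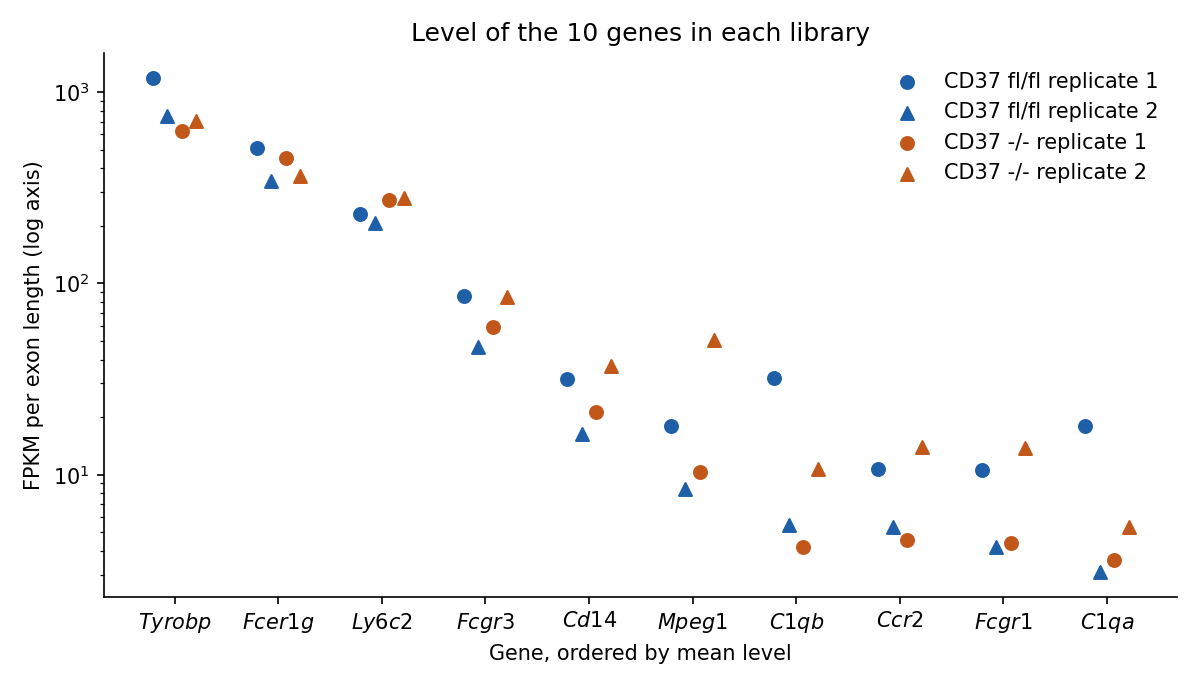
Level of the 10 genes in each of the 4 libraries, as FPKM per exon length on a log axis, with genes ordered by their mean. Blue points are CD37 fl/fl and orange points CD37 -/-, circles replicate 1 and triangles replicate 2. *Tyrobp*, *Fcer1g* and *Ly6c2* lie above 200 in every library, while *C1qb*, *Ccr2*, *Fcgr1* and *C1qa* spread from 3.11 to 32.2.

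The ITAM adaptors were read at depth in every library, with 7418 to 12143 reads for *Tyrobp* and 5193 to 7235 for *Fcer1g*. *Tyrobp* (chr7:30413760-30417585) had an FPKM of 207 and 131 in CD37 fl/fl and of 109 and 123 in CD37 -/-. Both CD37 -/- libraries lay below both CD37 fl/fl libraries, and the means were 169 ± 53.6 and 116 ± 9.47 (SD, n = 2). The log2 fold change was -0.51 ± 0.32 (SE, adjusted p = 0.364, limma). *Fcer1g* (chr1:171229572-171234365) had an FPKM of 92.7 and 62.5 in CD37 fl/fl and of 82.3 and 66.7 in CD37 -/-. The CD37 -/- values fell between those of CD37 fl/fl, and the log2 fold change was -0.04 ± 0.31 (SE, adjusted p = 0.949, limma). *Fcer1g* was the single gene of the 10 that was lower in CD37 -/- replicate 2 than in CD37 -/- replicate 1. Per exon length, the ratio of *Fcer1g* to *Tyrobp* was 0.428 and 0.455 in CD37 fl/fl against 0.720 and 0.520 in CD37 -/-. *Tyrobp* lies 126 bp from *Hcst*, which encodes the related adaptor DAP10 on the opposite strand.

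The receptors that pair with the FcR gamma chain were lower than the adaptor and less even. *Fcgr3* (chr1:171051174-171064935) had an FPKM of 10.8 and 5.89 in CD37 fl/fl and of 7.43 and 10.8 in CD37 -/-. *Fcgr1* (chr3:96282909-96293969) had an FPKM of 2.48 and 0.981 in CD37 fl/fl and of 1.02 and 3.22 in CD37 -/-, from 188 to 807 reads. In both genes CD37 fl/fl replicate 1 and CD37 -/- replicate 2 were the high libraries, and the genotypes overlapped. The ratio within a genotype reached 2.53-fold in CD37 fl/fl and 3.15-fold in CD37 -/- for *Fcgr1*. Per exon length, *Fcgr3* exceeded *Fcgr1* by 8.05-fold and 11.1-fold in CD37 fl/fl and by 13.5-fold and 6.19-fold in CD37 -/-. The log2 fold change was 0.14 ± 0.33 (SE, adjusted p = 0.807, limma) for *Fcgr3* and 0.15 ± 0.43 (SE, adjusted p = 0.842, limma) for *Fcgr1*. Of the stretches of 50 bases in *Fcgr3* transcripts, 9.58% also occur in *Fcgr2b*, the inhibitory IgG receptor, so that reads from these stretches cannot be assigned by sequence alone.

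*Cd14* (chr18:36725067-36726798) had an FPKM of 31.6 and 16.3 in CD37 fl/fl and of 21.2 and 37.0 in CD37 -/-. The means were 24.0 ± 10.9 and 29.1 ± 11.2 (SD, n = 2), and the genotypes overlapped. Its log2 fold change was 0.29 ± 0.42 (SE, adjusted p = 0.685, limma).

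The C1q genes were the most uneven within CD37 fl/fl. *C1qa* (chr4:136895917-136898803) had an FPKM of 6.51 and 1.12 in CD37 fl/fl and of 1.29 and 1.93 in CD37 -/-. *C1qb* (chr4:136880129-136886187) had an FPKM of 5.78 and 0.981 in CD37 fl/fl and of 0.754 and 1.93 in CD37 -/-. A single library, CD37 fl/fl replicate 1, was high for both, 5.81-fold above replicate 2 for *C1qa* and 5.89-fold for *C1qb*. Both genes lie in 1 cluster with *C1qc*, which encodes the third chain and sits 2851 bp from *C1qa* and 3616 bp from *C1qb* on the same strand. *C1qc* had the same high library, with an FPKM of 3.16 and 0.602 in CD37 fl/fl and of 0.760 and 1.79 in CD37 -/-. The ratio of *C1qa* to *C1qb* per exon length was 0.561 and 0.569 in CD37 fl/fl against 0.852 and 0.497 in CD37 -/-. The log2 fold changes were -0.62 ± 0.57 (SE, adjusted p = 0.513, limma) for *C1qa* and -0.69 ± 0.59 (SE, adjusted p = 0.485, limma) for *C1qb*. Without CD37 fl/fl replicate 1 they were 0.29 and 0.20. Without CD37 fl/fl replicate 2 they were -1.54 and -1.58, and these rest on a single CD37 fl/fl library.

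*Ccr2* (chr9:124101950-124113557) had an FPKM of 6.24 and 3.11 in CD37 fl/fl and of 2.67 and 8.10 in CD37 -/-. Its highest and lowest libraries were both CD37 -/-, 3.03-fold apart, and the log2 fold change was 0.08 ± 0.49 (SE, adjusted p = 0.931, limma). *Mpeg1* (chr19:12460779-12465283) had an FPKM of 17.3 and 8.07 in CD37 fl/fl and of 9.997 and 48.6 in CD37 -/-. CD37 -/- replicate 2 stood 4.86-fold above CD37 -/- replicate 1, whose value lay between those of CD37 fl/fl. The log2 fold change of *Mpeg1*, 0.86 ± 0.74 (SE, adjusted p = 0.490, limma), was the largest in size of the 10 and rested on that library. It was -0.23 without CD37 -/- replicate 2 and 1.94 without CD37 -/- replicate 1.

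*Ly6c2* (chr15:75108158-75111970) was the steadiest of the 10. Its FPKM was 166 and 149 in CD37 fl/fl against 196 and 201 in CD37 -/-, with means of 157 ± 12.0 and 198 ± 3.53 (SD, n = 2). Both CD37 -/- libraries lay above both CD37 fl/fl libraries, and the ratio within a genotype was 1.11-fold in CD37 fl/fl and 1.026-fold in CD37 -/-. The log2 fold change was 0.33 ± 0.26 (SE, adjusted p = 0.448, limma). Stretches shared with *Ly6c1*, its near copy, made up 13.9% of the 50-base stretches of *Ly6c2* transcripts. *Ly6c1* itself had between 0 and 7 reads per library.

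The difference between libraries of one genotype exceeded that between the genotypes for 9 of the 10 genes, all but *Ly6c2*, against 52.2% of all 6761 genes tested (on the log2(FPKM + 1) scale, with the larger of the replicate differences in each gene). All 10 were higher in CD37 fl/fl replicate 1 than in CD37 fl/fl replicate 2, as were 38.8% of all tested genes. In CD37 -/-, 9 of the 10 were higher in replicate 2, as were 50.9% of all tested genes. Both directions held together for 9 of the 10 genes and for 19.7% of all tested genes. The median difference between replicates was 0.82 in CD37 fl/fl and 0.61 in CD37 -/- for the 10 genes, and 0.25 and 0.22 for all tested genes. The 10 genes took 0.230% and 0.157% of the reads in CD37 fl/fl against 0.179% and 0.213% in CD37 -/-. In bulk RNA, a different number of monocyte-like cells in the sort and a different amount of RNA per cell cannot be told apart.

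**Figure D2:**
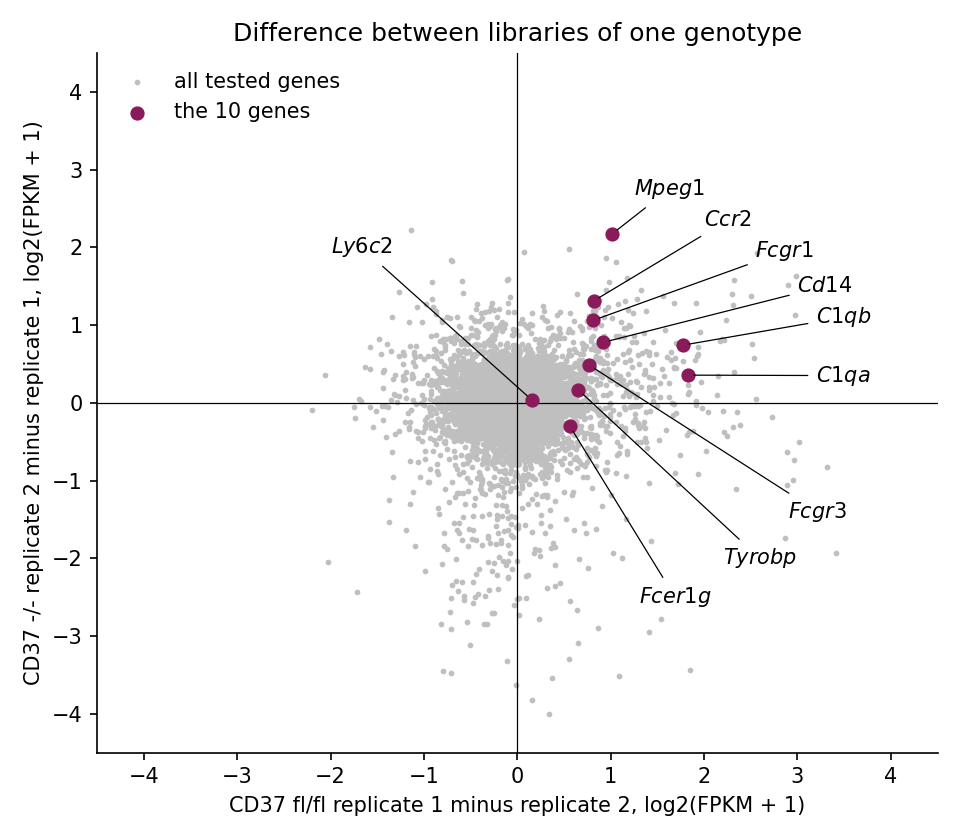
Difference between the libraries of CD37 fl/fl (horizontal, replicate 1 minus replicate 2) and between those of CD37 -/- (vertical, replicate 2 minus replicate 1), in log2(FPKM + 1), for the 6761 tested genes (grey) and the 10 genes (purple). Of the 10, 9 lie in the upper right field and *Fcer1g* just below it, with *C1qa* and *C1qb* farthest to the right and *Mpeg1* at the top.

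Markers of other cells also differed between the libraries. Summed FPKM of 12 neutrophil genes was 18734 and 3705 in CD37 fl/fl against 18740 and 10623 in CD37 -/-. Gene by gene, all 12 had a log2 fold change above 0, from 0.17 to 2.08 with a median of 1.18. The genotypes did not overlap in 6 of the 12, all higher in CD37 -/-, against 61.9% of all tested genes (38.2% higher). In limma, 1 of the 12 passed the unadjusted p, against 24.0% of all tested genes, and 0 the adjusted p. All 12 were lower in CD37 fl/fl replicate 2 than in CD37 fl/fl replicate 1. For 11 dendritic cell genes, led by MHC class II and its invariant chain *Cd74*, the sums were 263, 34.1, 12.1 and 47.7 in the same order, with the highest in CD37 fl/fl replicate 1 as for the C1q genes. The dendritic markers *Xcr1* (0 to 15 reads) and *Clec9a* (3 to 5 reads) were near 0. For 11 genes of resident macrophages, *C1qc* among them, the sums were 8.66, 3.94, 10.6 and 17.1, with 0 to 6 reads of *Cd5l* and 14 to 50 of *Cd163*. These sums were again higher in CD37 fl/fl replicate 1 and in CD37 -/- replicate 2 than in the other library of each genotype. Both CD37 -/- sums also lay above both CD37 fl/fl sums. Of the 4 tested genes, 2 were higher in CD37 -/- at the unadjusted p (16.1% of all tested genes) and 0 passed the adjusted p. The genotypes did not overlap in 3 of the 4, all higher in CD37 -/- (38.2% of all tested genes), and the median log2 fold change was 0.97. For 8 erythroid genes the sums were 61.0, 5.17, 576 and 143. All 4 tested erythroid genes were higher in CD37 -/- at the unadjusted p, against 16.1% of all tested genes, and 0 passed the adjusted p. Their genotypes did not overlap, and their log2 fold changes ran from 3.33 to 4.12. For 7 B cell genes the sums were 31.0, 24.9, 16.6 and 26.4, and for 5 T and NK cell genes 94.7, 118, 40.4 and 41.4. At the unadjusted p, 1 of 2 tested B cell genes and the 1 tested T and NK cell gene were lower, against 7.96% of all tested genes. The 12 leukemic progenitor genes summed to 2698, 3805, 2671 and 2466. Of the 9 tested among them, 1 was higher in CD37 fl/fl replicate 1 than in replicate 2, 3 were higher in CD37 -/- replicate 2 than in replicate 1, and 0 showed both directions together. The part of these cells in the values of the 10 genes was not tested.

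The question of the comparison was whether loss of CD37 went with a different level of these genes in LSCs, and 0 of the 10 passed an adjusted p of 0.05 in limma, as did 0% of all tested genes. At an unadjusted p under 0.05, 0 of the 10 passed, against 24.0% of all tested genes. With limma-voom on the recovered reads 0 of the 10 passed at either threshold. Of the 13056 genes in that fit, 3303 passed the unadjusted p and 0 the adjusted p. The genotypes did not overlap in 2 of the 10 genes, *Ly6c2* upward and *Tyrobp* downward, against 61.9% of all tested genes (38.2% higher and 23.7% lower in CD37 -/-). The median log2 fold change of the 10 was 0.11, and that of all tested genes 0.11. With 2 libraries against 2, an exact two-sided permutation test of a single gene cannot go below p = 0.333. The 95% intervals show what sizes the data leave possible, and they reached from -0.31 to 0.98 for *Ly6c2*, from -1.30 to 0.29 for *Tyrobp*, from -0.80 to 0.73 for *Fcer1g* and from -0.97 to 2.68 for *Mpeg1*, on the log2 scale.

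**Figure D3:**
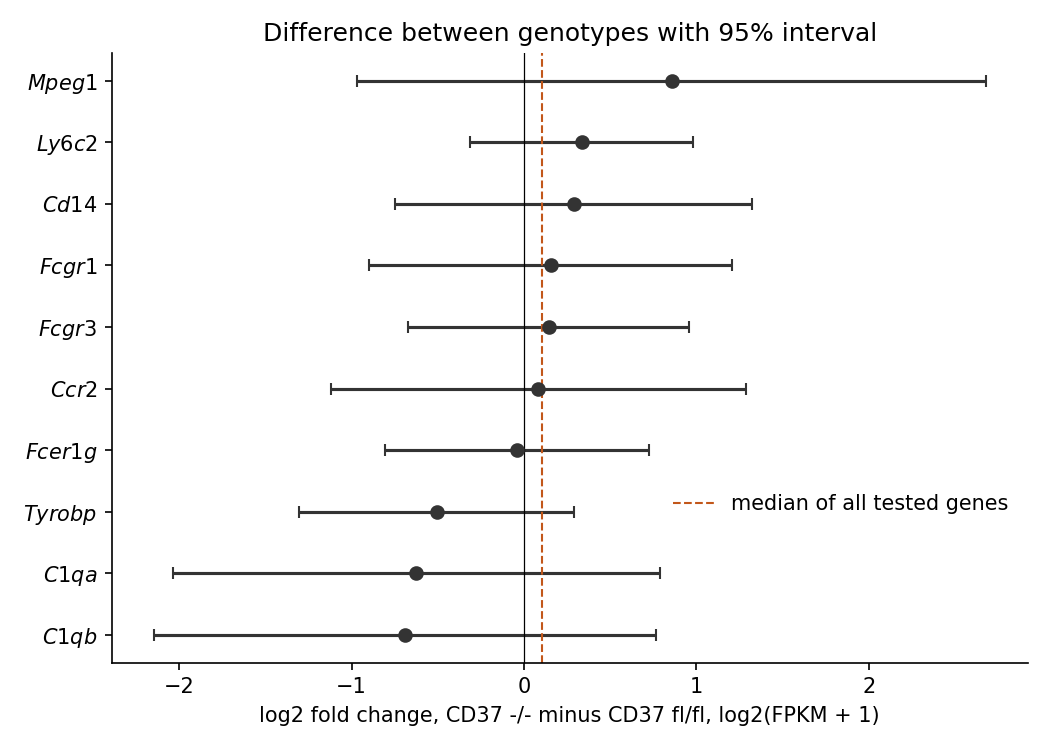
log2 fold change of the 10 genes (CD37 -/- minus CD37 fl/fl, log2(FPKM + 1)) with the 95% interval of limma as bars. The dashed line is the median of all tested genes (0.11), and every interval includes 0, from the narrowest (*Ly6c2*) to the widest (*Mpeg1*).

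The direction for the list as a whole depended on single libraries. The median log2 fold change of the 10 genes was 0.45 without CD37 fl/fl replicate 1 and 0.37 without CD37 -/- replicate 1. It was -0.29 without CD37 fl/fl replicate 2 and -0.30 without CD37 -/- replicate 2. The median of all tested genes stayed between 0.07 and 0.13 in these 4 fits.

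Partners and pathway genes of the 10 were described from 9 lists written by function, of which 124 of 145 genes had values and 71 were tested. At an unadjusted p under 0.05 in limma, 10 of the 71 were higher and 3 lower in CD37 -/-, against 16.1% and 7.96% of all tested genes, and 0 passed the adjusted p. Their median log2 fold change was 0.20, beside 0.11 over all tested genes. As among the 10 genes, 54 of the 71 were higher in CD37 fl/fl replicate 1 and in CD37 -/- replicate 2 than in the other library of their genotype.

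Among the ITAM receptors and kinases, 3 of 17 tested genes were higher and 1 lower, with a median log2 fold change of 0.37. *Syk*, the kinase that binds both adaptors, had an FPKM of 3.16 and 1.90 in CD37 fl/fl and of 3.69 and 5.79 in CD37 -/- (log2 fold change 0.70, adjusted p = 0.201, limma). *Btk*, a kinase downstream of SYK, had 2.29 and 2.95 in CD37 fl/fl against 3.80 and 4.48 in CD37 -/- (0.51, adjusted p = 0.188). *Card9*, a signaling adaptor downstream of SYK, was the gene below CD37 fl/fl, with 26.4 and 20.8 against 14.2 and 6.83 (-1.17, adjusted p = 0.150). *Hcst* had 29.1 and 13.5 in CD37 fl/fl against 22.1 and 11.3 in CD37 -/-, with overlapping genotypes.

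Of the other Fc receptors 2 were tested, and *Fcgr2b* was higher in CD37 -/- at the unadjusted p, with an FPKM of 5.06 and 3.88 in CD37 fl/fl and of 6.60 and 8.79 in CD37 -/- (log2 fold change 0.67, adjusted p = 0.167, limma). *Fcgr4*, an activating IgG receptor, had 4.52 and 0.921 in CD37 fl/fl against 3.84 and 4.80 in CD37 -/-. Among the lipopolysaccharide co-receptors and adaptors, 2 of 8 tested genes were higher and none lower. These were *Lbp*, which delivers lipopolysaccharide to CD14 (log2 fold change 0.75, adjusted p = 0.137, limma), and *Irak1*, a kinase downstream of the Toll-like receptors (0.77, adjusted p = 0.165). *Tlr4* and *Ly96*, which form the receptor that CD14 serves, stayed under the filter on FPKM as deposited, with 406 to 1227 and 18 to 49 reads. The deposited FPKM of *Tlr4* was divided by a gene span of 102701 bp. Per exon length *Tlr4* had 4.22 to 9.76, beside 4.19 to 13.8 for *Fcgr1*, which was tested, and *Ly96* had 1.02 to 2.12.

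In the complement list, 1 of 8 tested genes was higher, *C5ar1*, the receptor of the fragment C5a, with an FPKM of 1.38 and 0.577 in CD37 fl/fl and of 2.66 and 3.80 in CD37 -/- (log2 fold change 1.12, adjusted p = 0.114, limma). Among chemokine receptors and ligands of CCR2, 1 of 6 was higher. It was *Cxcr4*, the receptor that holds progenitors in the marrow, with 16.8 and 13.8 in CD37 fl/fl against 42.8 and 45.4 in CD37 -/- (1.47, adjusted p = 0.071). *Ccl2* was not analysed here. In the Ly6 family 1 of 3 tested genes was lower, *Ly6e*, with 199 and 203 in CD37 fl/fl against 84.1 and 141 in CD37 -/- (-0.88, adjusted p = 0.193). Neither of the 2 tested pore-forming genes, *Gsdmd* and *Ninj1*, passed the unadjusted p, and *Prf1* was not analysed here.

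Further monocyte and macrophage markers gave 2 higher of 16 tested. One of them was *Itgb2*, which encodes the beta chain of leukocyte integrins. *Itgb2* had an FPKM of 5.08 and 3.56 in CD37 fl/fl and of 12.0 and 17.2 in CD37 -/- (log2 fold change 1.55, adjusted p = 0.075, limma). *Csf1r*, the receptor of the macrophage growth factor M-CSF, had 3.79 and 1.16 in CD37 fl/fl against 1.16 and 4.38 in CD37 -/-, the same order of libraries as *Fcgr1*. Of the monocyte transcription factors 1 of 9 tested was lower, *Zeb2*, with 2.88 and 1.76 in CD37 fl/fl against 1.14 and 0.785 in CD37 -/- (-0.74, adjusted p = 0.147).

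**Figure D4:**
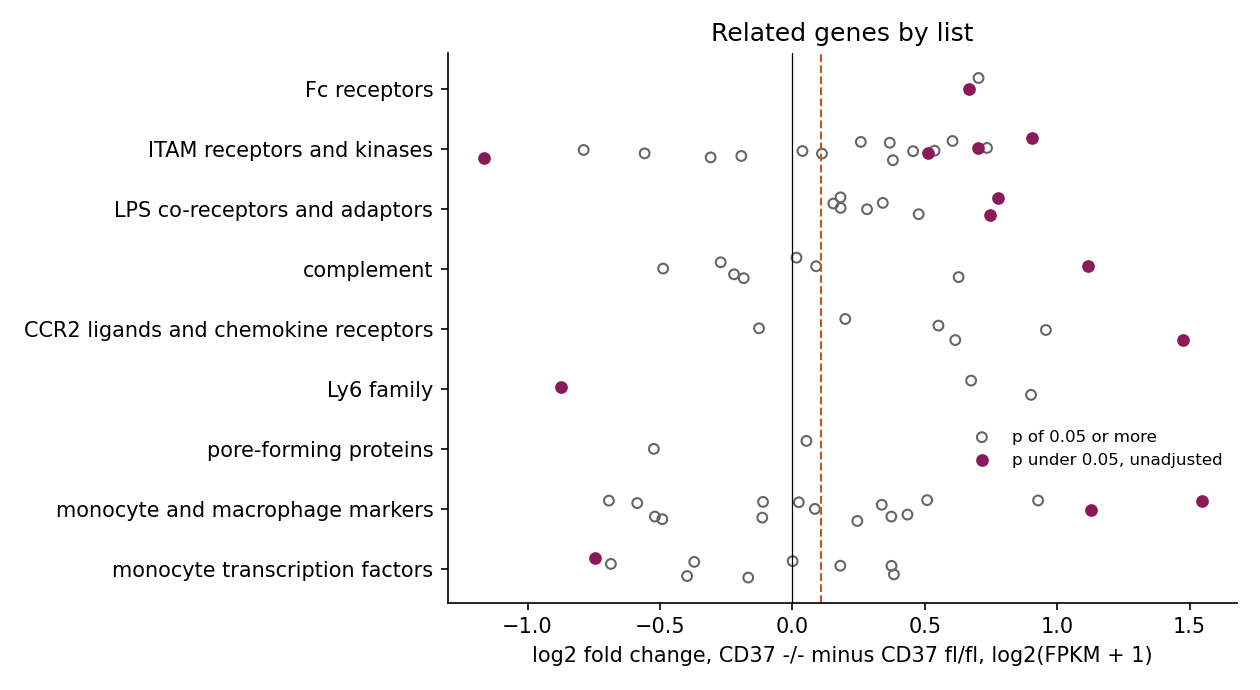
log2 fold change (CD37 -/- minus CD37 fl/fl, log2(FPKM + 1)) of the 71 tested genes of the 9 related lists, 1 row per list with points shifted up or down for legibility. Filled points have an unadjusted p under 0.05 in limma (10 to the right of 0 and 3 to the left), and the dashed line is the median of all tested genes.

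The 5 genes outside every list whose profile over the 4 libraries was nearest to the mean profile of the 10 were *Il4ra*, *Cdkn1a*, *Ypel3*, *Tnfsf14* and *Btg1*. Nearness was the Euclidean distance of centred log2(FPKM + 1) values over the 4 libraries, and it ran from 0.15 to 0.24. *Il4ra*, the interleukin-4 receptor alpha chain, had an FPKM of 8.68 and 4.62 in CD37 fl/fl and of 4.40 and 8.64 in CD37 -/-. *Cdkn1a*, which encodes the cell-cycle inhibitor p21, had 11.8 and 5.57 in CD37 fl/fl against 7.31 and 10.8 in CD37 -/-. With 4 libraries, such a likeness is a description of these libraries.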

How the data were processed

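Poly(A) RNA of sorted LSCs was sequenced as strand-specific (dUTP) libraries, 2 per genotype. The authors deposited FPKM values per gene and library, without a log or pooling of replicates. The submitters' processing notes name fastp 0.20.1, STAR 2.7.7a, featureCounts 2.0.0, edgeR and the build mm39, with no role or order. With the gene spans of GENCODE M21 on GRCm38, 98.9% to 99.0% of values were whole reads (within 0.05 reads), and with exon lengths 10.9% to 11.6%, where chance gives 10%. Names and positions were taken from that annotation, which matched 17045 of 17104 identifiers (99.7%). Dividing by the span lowers the FPKM of genes with long introns.

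Values were tested as log2(FPKM + 1), a scale that understates changes of low genes, for the 6761 genes whose mean FPKM was 1 or more. The two-sided test used limma 3.58.1 in R 4.3.3 with statmod 1.5.0 (lmFit, then eBayes with its trend option), Benjamini-Hochberg adjustment over these genes and no block. The code was tested on simulated data. Tables and figures used Python 3.11.15, pandas 2.3.3, numpy 2.4.6 and matplotlib 3.10.9. Named are the 10 genes, *Cd37*, up to 4 genes per list (smallest p, or partner of one of the 10) and the 5 nearest profiles. *Kit*, *Cd34*, *Hoxa9*, *Meis1*, *Cd74*, *Xcr1*, *Clec9a*, *Cd5l* and *Cd163* were named after their values were seen. Some genes that meet this rule are not reported here. The 10 genes and the lists were chosen with earlier results of these data known. Alternatives were another pseudocount, filter, scaling, variance estimate, gene length and count model, a replicate block, and each library left out.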

Additional observations from a re-analysis of the deposited data

How the results depend on the processing

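Across 15 alternative settings the log2 fold changes of the 10 genes kept their direction in 130 of 147 values. Another filter or variance estimate, or the replicate block, leaves a fold change as it was, so those values could not turn. The 17 reversals came with quantile normalization, rescaling to equal sums or a library left out. In the settings that kept all libraries, 0 of the 10 passed the adjusted p in limma. *Ly6c2* stayed between 0.26 and 0.72 and *Tyrobp* between -0.83 and -0.13 in all 15. Quantile normalization turned *Fcgr1* to -0.080, *Ccr2* to -0.045 and *Fcer1g* to 0.17 and took the median of the 10 genes to -0.00. Rescaling to equal sums (TPM) turned *Fcer1g* to 0.34 and moved the median of all tested genes from 0.11 to 0.49 and that of the 10 genes to 0.49. At the unadjusted p, 1 of the 10 passed under each of these 2 settings, *Ly6c2* both times. Of all 6761 tested genes, 1453 passed it with quantile normalization and 2256 with TPM. The share of higher genes among all calls at the unadjusted p was 66.9% as reported, 47.5% with quantile normalization, 58.4% with the upper quartile as divisor, 50.3% with the filter at a mean FPKM of 5 and 91.4% with TPM.

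Without 1 library, the group left with a single sample was assumed to vary like the other. Such a fit cannot measure the spread within that group, and only the fold changes of the 10 genes are given. The log2 fold changes then ran from -1.54 to 0.29 for *C1qa* and from -1.58 to 0.20 for *C1qb* (upward without CD37 fl/fl replicate 1), and from -0.23 to 1.94 for *Mpeg1* (downward without CD37 -/- replicate 2). They ran from -0.38 to 0.69 for *Fcgr1*, from -0.57 to 0.74 for *Ccr2*, from -0.17 to 0.75 for *Cd14* and from -0.24 to 0.53 for *Fcgr3*, all 4 downward without CD37 fl/fl replicate 2 or CD37 -/- replicate 2, and from -0.32 to 0.24 for *Fcer1g*. Related genes at the unadjusted p numbered 13 as reported, 8 with the filter at a mean FPKM of 5, where fewer genes are tested, 25 with limma-voom on recovered reads, and between 8 and 22 without 1 library (8 without CD37 -/- replicate 2, 22 without CD37 fl/fl replicate 1). The cause of the other shifts was not tested.

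With the replicate number as a block, 0 of the 10 genes passed either threshold, and 13 related genes passed the unadjusted p. Of all 6761 tested genes, 1577 passed the unadjusted p and 73 the adjusted p, beside 0 at the adjusted p without the block. The deviations of libraries with the same number correlated at -0.04 over the tested genes. With a single replicate difference per genotype, this value cannot show whether the numbers pair the samples. Calls among all tested genes at the adjusted p numbered 88 with robust estimation, 45 with the filter at a mean FPKM of 5 and 21 with exon length, and 0 in the other settings. Sampling error is small for the adaptors and *Ly6c2* and largest for *C1qa* and *C1qb*, which had 56 to 288 and 81 to 537 reads.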
